A study of Mus musculus with 9 samples.

Results

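RNA immunoprecipitation and sequencing (RIP-seq) recovers a protein with an antibody and reads the RNA that comes with it, and here it was read for 10 genes that mark radial glia and the progenitors derived from them: *Vim*, *Nes*, *Fabp7*, *Pax6*, *Sox2*, *Sox9*, *Hes1*, *Hes5*, *Eomes* and *Neurog2*. The genes were chosen by symbol, and every RefSeq transcript row of each gene in the deposited counts was summed. All 10 were among the 15267 protein-coding genes tested, of 18559 with a count in any library. The 9 libraries came from the cytoplasmic fraction of cortices taken at postnatal day 0 from mice heterozygous for the *Celf2* knockin (KI) of p.R493H, an amino acid change in the RNA-binding protein CELF2. They form 3 groups of 3: CELF2-KI RIP, with 10 µg of rabbit anti-CELF2 for 3 hours, IgG RIP, with normal rabbit IgG in its place, and input, set aside before any antibody was added. All 9 libraries carry the same heterozygous genotype, so none shows wild-type CELF2, and the sources used here do not say whether animals were pooled. The labels describe the fraction as coming from neurons, radial glia, astrocytes, oligodendrocyte precursors, microglia and endothelial cells together.

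Radial glia are the neural stem cells of the developing cortex, and they span its wall on long fibres built on the intermediate filaments vimentin and nestin. The transcription factors PAX6, SOX2 and SOX9 and the Notch effectors HES1 and HES5 keep them dividing, while NEUROG2 and EOMES mark the step to neurons through intermediate progenitors. Around birth neurogenesis in the cortex is ending and radial glia turn toward making glia, and many of these genes, *Sox9*, *Vim* and *Fabp7* among them, are also used by astrocytes.

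Libraries held 15919600 to 20052716 estimated counts in the CELF2-KI RIPs, 17365561 to 28773130 in the IgG RIPs and 69125700 to 105116427 in input. Protein-coding genes received 13523208 to 16840312, 9347321 to 14965243 and 55250740 to 78514685 of these. Rows with no gene in the table used here held 11.6% to 12.6% of the counts in the CELF2-KI RIPs, 9.24% to 9.75% in input, and 43.5%, 41.5% and 21.1% in the 3 IgG RIPs. Levels are CPM, counts relative to the library size as scaled by TMM, edgeR's trimmed mean of M values. Reads carry no molecular identifiers and transcript lengths were not used, so a CPM value is compared between libraries and never between genes. *Celf2* mRNA itself stood at 470, 797 and 647 CPM in the CELF2-KI RIPs, above the 199.8 to 305 CPM of the 6 controls.

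Most of the progenitor genes that moved were lower in the CELF2-KI RIPs. Against IgG RIP, *Vim*, *Nes*, *Hes1* and *Fabp7* were lower, *Sox9* was higher, and the other 5 were not called, where a call needed a Benjamini-Hochberg FDR under 0.01 over all tested genes in edgeR's quasi-likelihood test and a change of at least 2-fold. Of all tested genes 13.6% were called lower and 13.4% higher in that comparison. Against input, *Vim*, *Hes1*, *Fabp7* and *Sox2* were lower and 0 were higher, beside 15.5% lower and 14.6% higher among all tested genes. For higher than input, 1 of the 10, *Sox9*, had a p under 0.05 before adjustment in edgeR, and DESeq2 also called 0. *Vim*, *Hes1* and *Fabp7* were lower than both controls, as were 9.54% of tested genes, and 0 of the 10 were higher than both, against 7.58%. Both comparisons use the same CELF2-KI RIP libraries. Each library mixes cells, so no level given here separates the number of cells of a type from the RNA per cell. The calls above compare the RNA recovered with each antibody or set aside as input, and do not measure cell numbers.

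The 3 CELF2-KI RIP libraries lay below all 6 controls for *Vim*, *Nes*, *Hes1* and *Fabp7*, an order found for 19.9% of tested genes. They lay above all 6 for *Sox9* and *Neurog2*, an order found for 25.2%. Against the IgG RIPs alone, 2 of the 10 lay fully above and 4 fully below, an order found for 30% and 27.4% of tested genes, and against the inputs alone 2 lay above and 5 below, an order found for 42.1% and 31.8%. For *Pax6*, *Sox2*, *Hes5* and *Eomes* the libraries overlapped with at least 1 control. Over the 10 genes the median log2 fold change was -0.40 against IgG RIP and -0.52 against input, beside -0.06 and 0.19 for all tested genes. The scaling set where 0 lies. With total counts in place of TMM the median of all genes shifted by -0.37 against IgG RIP and -0.46 against input, and the calls went from 2050 higher and 2069 lower to 937 and 3421 against IgG RIP, and from 2226 and 2366 to 531 and 3581 against input. The distance of the members' median from that of all genes stayed near, at -0.33 against IgG RIP and -0.70 against input with total counts, and at -0.34 and -0.71 with TMM.

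**Figure D1:**
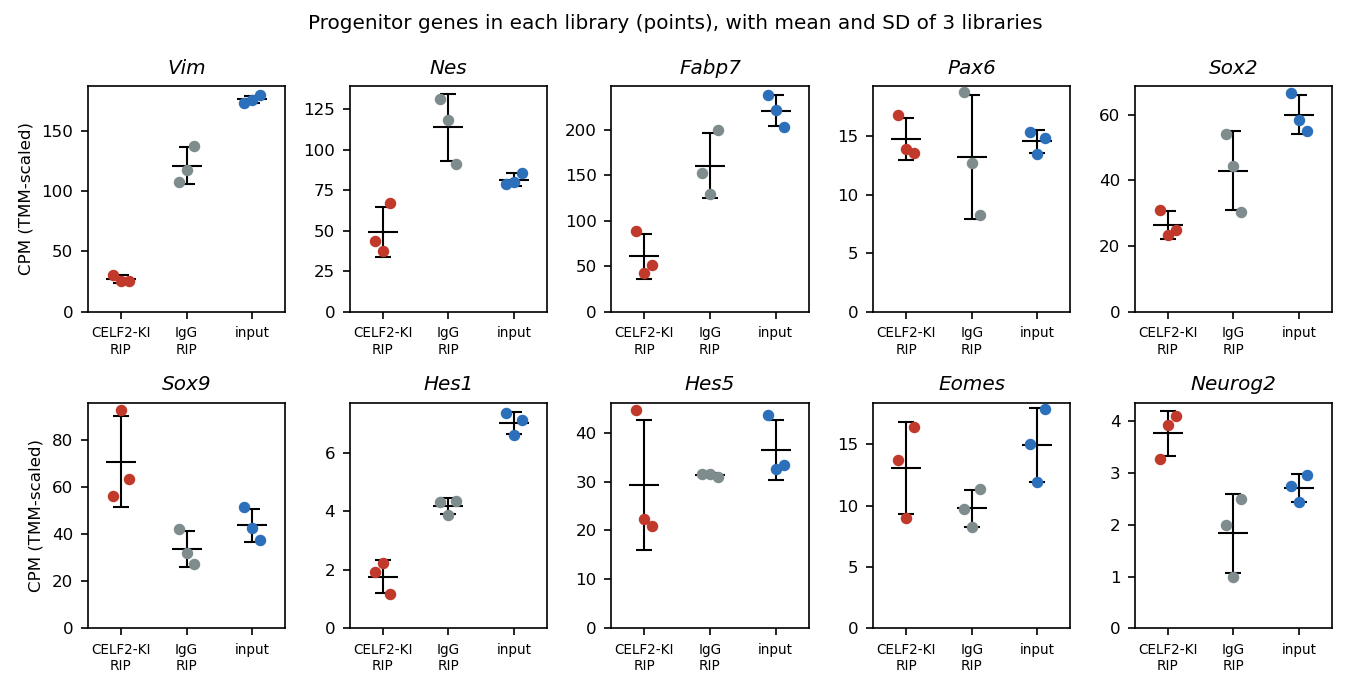
CPM on TMM-scaled library sizes (vertical axis from 0, its own scale in each panel) for the 10 progenitor genes in CELF2-KI RIP, IgG RIP and input, with each point 1 library and the bar the mean with its SD (n = 3). The CELF2-KI RIP points for *Vim* sit between 25.4 and 30.8 CPM under controls of 108 to 179, while those for *Sox9*, at 56.4 to 92.8, lie above controls of 27.3 to 51.5.

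*Vim* encodes vimentin, the main intermediate filament of radial fibres, and its mRNA was the furthest below the controls of the 10. It was at 30.8, 25.5 and 25.4 CPM in the CELF2-KI RIPs, at 108, 117 and 138 CPM in the IgG RIPs, and at 173, 176 and 179 CPM in input. The 3 conditions formed separate bands with CELF2-KI RIP the lowest and input the highest. The fall was 4.44-fold against IgG RIP, a log2 fold change of -2.15 (SE 0.13, FDR = 5.46e-06), and 6.46-fold against input, at -2.69 (SE 0.13, FDR = 4.07e-07). Only 2.76% of tested genes had a smaller log2 fold change against IgG RIP, and 3.35% against input. The call held under all 22 alternative settings in each comparison, with values of -2.51 to -2.05 and -3.15 to -2.64, and *Vim* was the member that edgeR's glmTreat, a test against the 2-fold threshold itself, still called against IgG RIP.

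*Nes* encodes nestin, the filament protein that partners vimentin in neural stem cells. Its CPM was 43.8, 37.7 and 67.0 in the CELF2-KI RIPs, 132, 119 and 91.5 in the IgG RIPs, and 78.8, 80.1 and 86.1 in input. Unlike *Vim*, it stood highest in the IgG RIPs, whose 3 libraries all exceeded input. *Nes* was 2.31-fold lower in the CELF2-KI RIPs than in the IgG RIPs (log2 fold change -1.21, SE 0.21, FDR = 0.000774). Against input its log2 fold change was -0.72 (SE 0.21, FDR = 0.0121) and was not called, although the 3 libraries lay below input. Replicate 3, the highest of the CELF2-KI RIPs, decided that outcome, since without it the value was -1.003 (FDR = 0.00125) and called, as it also was with total counts (-1.18) and with TMM over coding and noncoding genes (-1.11).

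*Fabp7* encodes the brain lipid-binding protein of radial glia. It was at 88.8, 42.6 and 51.4 CPM in the CELF2-KI RIPs, 152, 129.9 and 199.6 CPM in the IgG RIPs, and 238, 222 and 204 CPM in input, with no overlap between any pair of conditions. It fell 2.64-fold against IgG RIP (log2 fold change -1.40, SE 0.26, FDR = 0.00102) and 3.63-fold against input (-1.86, SE 0.26, FDR = 0.000154). Replicate 1 of CELF2-KI RIP stood above the other two, and leaving out any 1 of the 9 libraries left *Fabp7* called in both comparisons, at -1.77 to -1.20 and -2.24 to -1.65.

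Among the 3 transcription factors of the stem cell state, *Pax6* was not called, *Sox2* was lower than input and *Sox9* was higher than IgG RIP. *Pax6*, a paired-box factor of cortical radial glia, was at 16.8, 13.9 and 13.6 CPM in the CELF2-KI RIPs, 18.8, 12.7 and 8.24 CPM in the IgG RIPs, and 15.4, 13.5 and 14.8 CPM in input. The ranges overlapped fully. Its log2 fold changes were 0.16 against IgG RIP (95% interval -0.42 to 0.73, FDR = 0.637) and 0.02 against input (-0.54 to 0.58, FDR = 0.953), so that a change of 2-fold lay outside both intervals, and the sign turned with the scaling: total counts gave -0.21 and -0.44.

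*Sox2*, a factor needed to keep neural stem cells undifferentiated, was lower than input. Its CPM was 31.1, 23.3 and 24.9 in the CELF2-KI RIPs, 54.2, 44.2 and 30.5 in the IgG RIPs, and 66.5, 58.3 and 55.0 in input. The lowest IgG RIP, replicate 3, fell among the CELF2-KI RIPs, and the input libraries were above all others. The fall was 2.27-fold against input (log2 fold change -1.18, SE 0.21, FDR = 0.000678). Against IgG RIP the log2 fold change was -0.70 (SE 0.21, FDR = 0.0152), not called, and with total counts it was -1.06 and called.

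*Sox9*, a related factor that precedes and drives the formation of glia, was the member called higher. It was at 56.4, 92.8 and 63.5 CPM in the CELF2-KI RIPs, 42.2, 32.1 and 27.3 CPM in the IgG RIPs, and 51.5, 42.7 and 37.7 CPM in input. Every CELF2-KI RIP exceeded every control, with replicate 2 well above the other two. The log2 fold change was 1.06 against IgG RIP (SE 0.22, FDR = 0.00244), a 2.09-fold rise, and 0.69 against input (SE 0.22, FDR = 0.0201), not called. The call against IgG RIP lay at its threshold and held in 8 of 22 alternatives, with values from 0.68 to 1.25 that were all above 0. It was lost without CELF2-KI RIP replicate 2 (0.82), IgG RIP replicate 2 (1.04, FDR = 0.0104), IgG RIP replicate 3 (0.92) or input replicate 2 (0.96), and DESeq2 put it at 0.998 with an FDR of 5.15e-05, just under 2-fold.

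*Hes1* and *Hes5* encode repressors that Notch signalling switches on in radial glia to hold back neurogenesis. *Hes1* was at 1.92, 2.23 and 1.16 CPM in the CELF2-KI RIPs, 4.32, 3.87 and 4.37 CPM in the IgG RIPs, and 7.37, 6.63 and 7.12 CPM in input. The 3 conditions did not overlap, in the same order as for *Vim* and *Fabp7*. *Hes1* fell 2.35-fold against IgG RIP (log2 fold change -1.23, SE 0.27, FDR = 0.0027) and 3.95-fold against input (-1.98, SE 0.26, FDR = 0.000108). It rested on 24, 29 and 13 counts in the CELF2-KI RIP libraries. The call against input held in all 22 alternatives and that against IgG RIP in 19, and a fit of the 6 CELF2-KI and IgG RIP libraries alone gave -1.29 (FDR = 0.0188), not called.

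*Hes5* was at 44.7, 22.3 and 21.0 CPM in the CELF2-KI RIPs, 31.5, 31.5 and 30.9 CPM in the IgG RIPs, and 43.5, 32.5 and 33.4 CPM in input. The IgG RIP libraries were nearly equal, and the CELF2-KI RIPs lay on both sides of them. No call was made, with log2 fold changes of -0.09 against IgG RIP (95% interval -0.69 to 0.50, FDR = 0.788) and -0.31 against input (-0.90 to 0.27, FDR = 0.323). The sign against IgG RIP hung on single libraries, at 0.07 without CELF2-KI RIP replicate 2, 0.10 without replicate 3 and -0.53 without replicate 1.

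The 2 genes of the neurogenic step, *Neurog2*, a proneural factor, and *Eomes*, the T-box factor of intermediate progenitors, were not called in any comparison. *Neurog2* was at 3.28, 3.93 and 4.11 CPM in the CELF2-KI RIPs, 2.002, 0.991 and 2.51 CPM in the IgG RIPs, and 2.75, 2.44 and 2.96 CPM in input. All 3 CELF2-KI RIPs were above all 6 controls. The log2 fold change was 1.02 against IgG RIP (SE 0.34, FDR = 0.0275) and 0.47 against input (SE 0.32, FDR = 0.229). Counts were low, at 41, 51 and 46 in the CELF2-KI RIPs and 32, 10 and 35 in the IgG RIPs, and without IgG RIP replicate 3 the value was 1.28 (FDR = 0.00749) and called.

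*Eomes* was at 13.8, 9.01 and 16.4 CPM in the CELF2-KI RIPs, 9.76, 8.23 and 11.3 CPM in the IgG RIPs, and 15.1, 11.9 and 17.9 CPM in input. The CELF2-KI RIPs overlapped with both controls, while the IgG RIPs lay below the inputs. Its log2 fold changes were 0.41 against IgG RIP (95% interval -0.14 to 0.96, FDR = 0.183) and -0.20 against input (-0.73 to 0.34, FDR = 0.502).

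**Figure D2:**
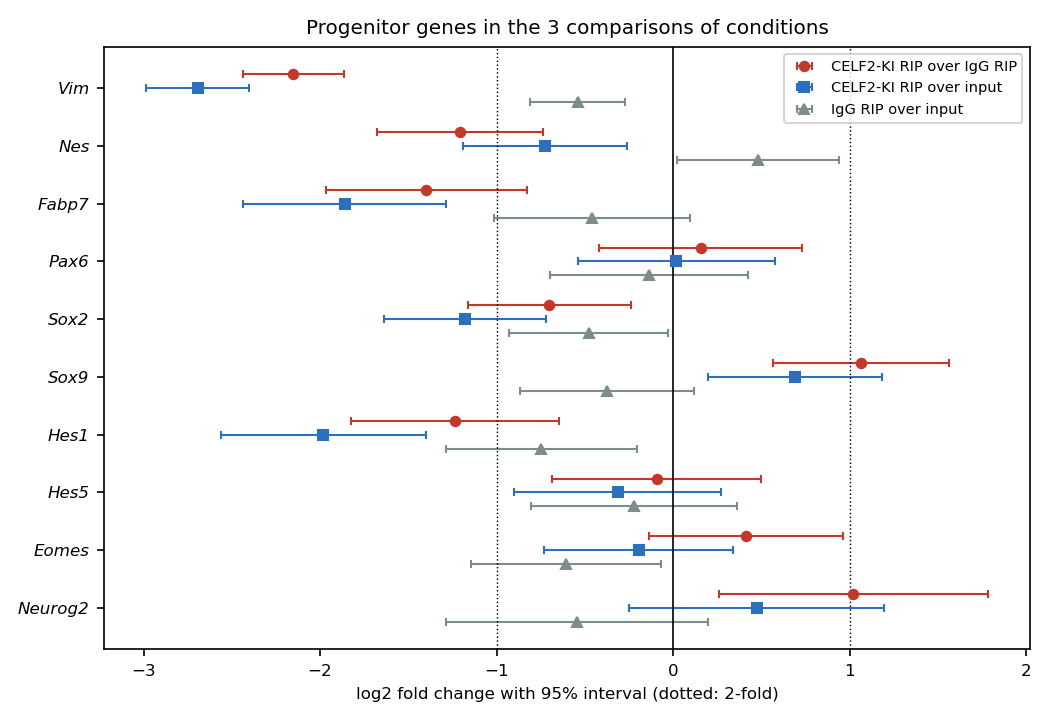
Log2 fold change (horizontal axis) of each progenitor gene with its 95% interval from edgeR for CELF2-KI RIP over IgG RIP (circles), CELF2-KI RIP over input (squares) and IgG RIP over input (triangles), with dotted lines at 2-fold. *Vim* lies beyond -2 in both comparisons of CELF2-KI RIP, *Sox9* and *Neurog2* lie near 1 against IgG RIP, and every triangle lies between the dotted lines, although 4 of their intervals reach past -1.

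Normal IgG RIP was also compared with input, to read the background of a pull-down without anti-CELF2. Of the 10 genes, 0 were called in either direction by edgeR's quasi-likelihood test or by DESeq2, beside 6.79% of tested genes higher and 5% lower. By p before adjustment, under 0.05, *Nes* was the 1 gene above input (log2 fold change 0.48) and 4 were below it (*Vim*, -0.54, *Hes1*, -0.75, *Sox2*, -0.48, and *Eomes*, -0.61). *Vim* passed the FDR here, at 0.00636, with a difference of 1.46-fold that was under the required size. All 3 IgG RIPs lay below all 3 inputs for *Sox2*, *Vim*, *Hes1*, *Hes5*, *Fabp7* and *Eomes*, or 6 of 10, against 29.4% of tested genes, and above them for *Nes*, against 27.1%. Over the 10 genes the median was -0.47 on the log2 scale, beside -0.00 for all tested genes.

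**Figure D3:**
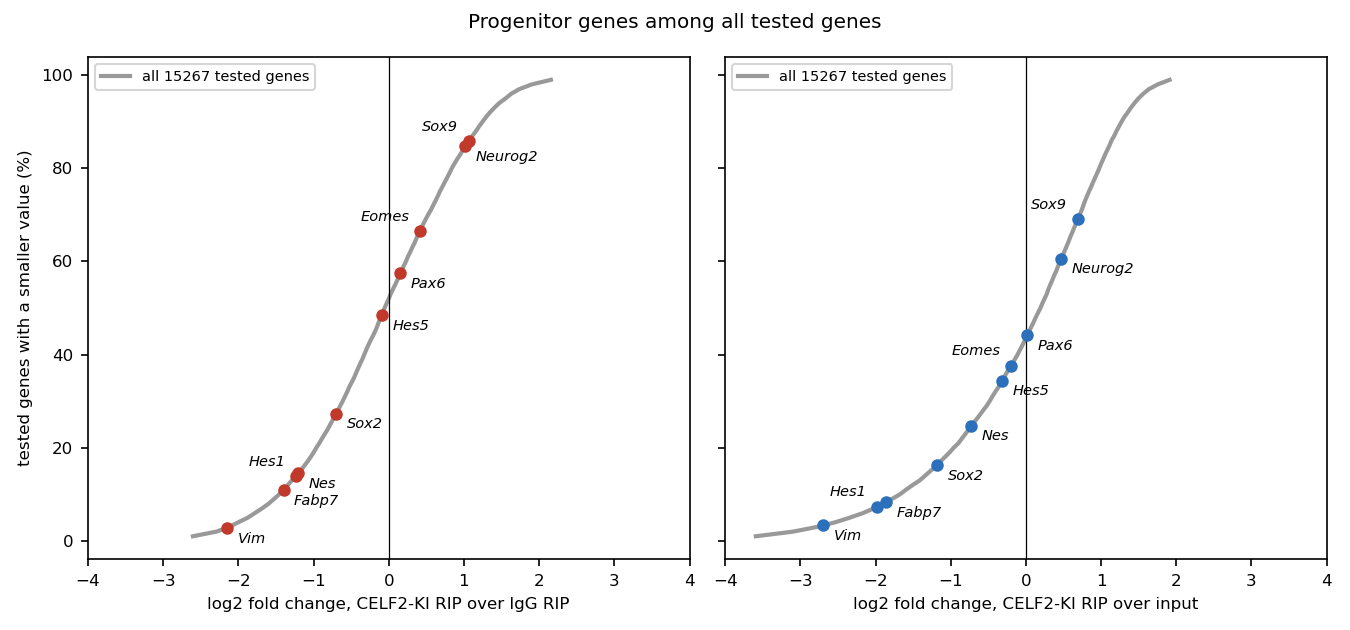
Percentage of tested genes with a smaller log2 fold change (vertical axis) against the log2 fold change (horizontal axis), for CELF2-KI RIP over IgG RIP on the left and over input on the right, with the grey line for all tested genes from the first to the last percentile and a point for each progenitor gene. *Vim* stands at 2.76% and 3.35%, and *Sox9* at 85.8% and 69.1%.

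Set in order against IgG RIP, the members ran from *Vim* through *Fabp7* (10.9% of tested genes had a smaller value), *Hes1* (13.9%), *Nes* (14.5%), *Sox2* (27.3%), *Hes5* (48.5%), *Pax6* (57.5%), *Eomes* (66.5%) and *Neurog2* (84.8%) to *Sox9*. The differences between *Fabp7*, *Hes1* and *Nes*, and between *Neurog2* and *Sox9*, were smaller than the standard error of any of these values. Against input, *Hes1* (7.33%) and *Fabp7* (8.32%) came after *Vim*, then *Sox2* (16.2%) and *Nes* (24.7%), and the remaining 5 kept to between 34.4% and 69.1%.

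The ratio of the counts of a pair of genes within 1 library does not depend on how libraries are scaled. The pairs were chosen after the levels were seen, so these ratios describe the libraries and carry no test. Counts of *Sox9* per count of *Sox2*, both SOX factors, were 1.81, 3.99 and 2.55 in the CELF2-KI RIPs and 0.685 to 0.897 in the 6 controls. Counts of *Nes* per count of *Vim* were 1.42, 1.48 and 2.64 in the CELF2-KI RIPs, 1.22, 1.01 and 0.665 in the IgG RIPs and 0.455 to 0.480 in input. *Hes5* per *Hes1* gave 23.3, 9.97 and 18.1 in the CELF2-KI RIPs against 4.69 to 8.15 in the controls, and *Neurog2* per *Eomes* gave 0.238, 0.436 and 0.250 against 0.121 to 0.222. In each pair, every CELF2-KI RIP lay above every control, by the least for *Neurog2* per *Eomes*, at 0.238 against 0.222. The widest gap was that between *Sox9* and *Vim*, whose ratio was 2.66 ± 0.915 (SD, n = 3) in the CELF2-KI RIPs, 0.288 ± 0.0969 in the IgG RIPs and 0.250 ± 0.0440 in input.

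**Figure D4:**
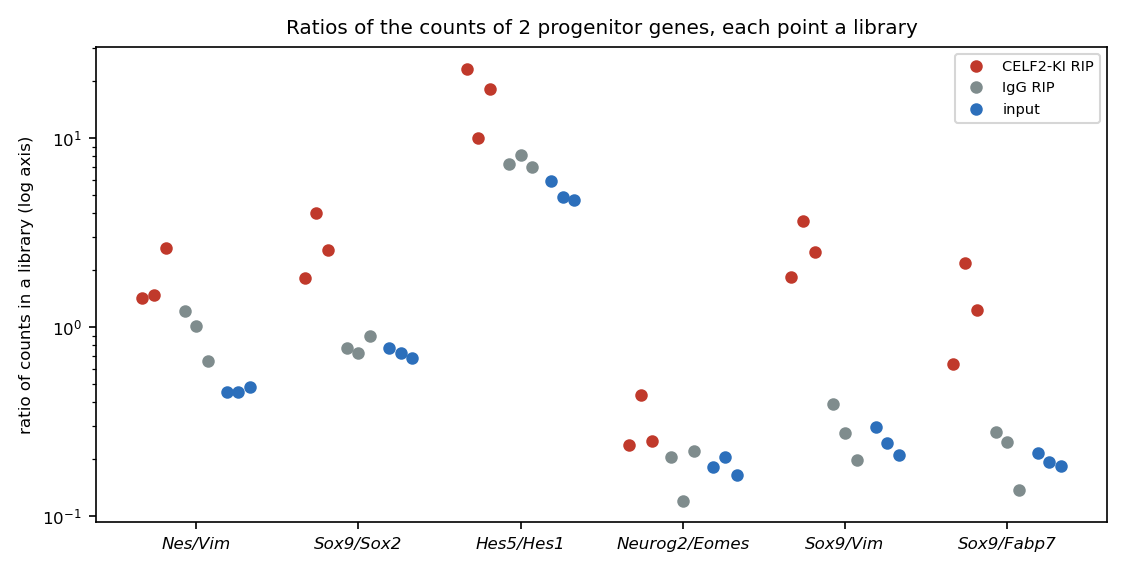
Ratio of the counts of 2 progenitor genes within each library (log axis), with each point 1 library of CELF2-KI RIP, IgG RIP or input. In all pairs drawn the 3 CELF2-KI RIP points lie above the 6 control points, with the widest separation for *Sox9* over *Vim*.

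Gene totals rest on how reads were divided between transcripts. *Vim*, *Nes*, *Fabp7*, *Sox2*, *Sox9* and *Neurog2* had 1 row each. For *Neurog2* the gene table lists 2 transcripts, and for *Hes5*, with 2 rows, it lists 3, so 1 transcript of each was not analysed here. The totals of *Vim*, *Nes*, *Hes1*, *Hes5*, *Fabp7* and *Neurog2* were whole numbers to within 0.01 in all 9 libraries, *Sox2* was whole in 7, and *Sox9*, *Pax6* and *Eomes* were whole in 0, as happens when reads are divided with rows outside the gene. *Pax6* had 8 rows, whose shares varied between libraries of the same condition. The row with the most counts in input took 51.4%, 42.0% and 53.3% of *Pax6* there, 15.2%, 32.4% and 32.9% in the CELF2-KI RIPs, and 26.5%, 80.1% and 0% in the 3 IgG RIPs. A second row took 35.4%, 0% and 81.8% in the IgG RIPs, from totals of 300, 128 and 115 counts, so no isoform of *Pax6* can be compared at this depth.

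The main row of *Eomes* held 75.8% ± 20.02 of its counts in the CELF2-KI RIPs, 52.7% ± 25.5 in the IgG RIPs and 80.1% ± 8.28 in input (SD, n = 3). In the IgG RIPs it ranged from 35.4% to 82.0%, across the values of the other conditions. *Hes5* divided its counts alike in all conditions, with its main row at 74.7% ± 3.17, 78.9% ± 4.95 and 78.1% ± 2.08. For *Hes1* the main row held all counts of CELF2-KI RIP and 95.9% ± 1.06 in input.

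By position on GRCm38.p6, *Vim* (chr2:13574311-13582826), *Nes* (chr3:87971093-87980451), *Fabp7* (chr10:57784923-57788450), *Sox9* (chr11:112782210-112787757), *Hes1* (chr16:30065357-30067796), *Hes5* (chr4:154960626-154962372) and *Neurog2* (chr3:127632733-127635636) overlap no other gene of the RefSeq table. *Sox2* (chr3:34649995-34652461) lies within *Sox2ot*, which received 221 to 317 counts in the CELF2-KI RIPs, 252 to 623 in the IgG RIPs and 1227 to 2199 in input. *Pax6* (chr2:105668896-105698410) overlaps *Pax6os1* and *Elp4*, which received 152 to 239 counts in the CELF2-KI RIPs, 211 to 339 in the IgG RIPs and 1201 to 1851 in input, and *Eomes* (chr9:118478186-118486132) overlaps *Gm33408*, which had at most 14.1 counts in a library. The libraries were directional, but the strand setting of the counting is not given in the sources used here, so reads of *Sox2*, *Pax6* and *Eomes* and of these neighbours may not be fully separated.

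Other genes of these cells were called in both directions. Of 40 tested radial glia genes other than the 10, 7 were higher and 4 lower in the CELF2-KI RIPs than in the IgG RIPs, with a median log2 fold change of 0.43, and against input 4 were higher and 9 lower, with a median of -0.14. Among the called genes, the largest rises over IgG RIP were of *Lifr*, a receptor subunit for LIF (1.36, from 68.3 ± 3.30 to 176 ± 42.5 CPM), and *Gli3*, a Hedgehog pathway factor (1.30). The largest falls among them were of *Dbi*, an acyl-CoA-binding protein (-2.30, from 31.1 ± 4.84 to 6.30 ± 1.74 CPM), and *Mt3*, a metallothionein (-2.14). Both of the latter were also called lower against input, at -3.63 and -3.61.

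Among 25 tested genes of intermediate progenitors and neurogenesis other than *Eomes* and *Neurog2*, 8 were higher and 2 lower than IgG RIP (median 0.38). The shares of all tested genes were 13.4% and 13.6%. Against input 7 were higher and 4 lower (median 0.36), beside 14.6% and 15.5% of all tested genes. *Insm1*, a zinc-finger factor of basal progenitors, rose from 57.8 ± 0.572 CPM in the IgG RIPs to 178 ± 38.5 CPM in the CELF2-KI RIPs (log2 fold change 1.62, FDR = 1.71e-05), and *Sstr2*, a somatostatin receptor, had 1.75. *Mfap4* (-2.81) and *Gadd45g* (-1.49) were lower.

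By family, the intermediate filament genes other than *Vim* and *Nes* leaned the same way as those 2. Of 16, 6 were lower than IgG RIP and 1 was higher, beside 13.6% and 13.4% of all tested genes. A log2 fold change below 0 was found for 15 of 16, beside 7939 of 15267 tested genes, and the median was -0.90. Against input 8 were lower and 1 higher, beside 15.5% and 14.6% of all tested genes. There 11 of 16 lay below 0 and 5 above, and the median was -1.12. The exception against IgG RIP was *Lmnb1*, a nuclear lamin (log2 fold change 1.16). It was at 281 ± 62.1 CPM in the CELF2-KI RIPs and 126 ± 12.2 CPM in the IgG RIPs. *Krt8* and *Des*, called lower, rested on 1, 4 and 2 counts each in the CELF2-KI RIP libraries, against 13, 17 and 25 and 13, 10 and 21 in the IgG RIPs. *Bfsp2*, also called lower, rested on 1, 2 and 2 counts against 12, 5 and 14. *Gfap*, the filament of astrocytes, was not called, at -0.90.

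Of 5 tested fatty-acid-binding and related genes other than *Fabp7*, 2 were lower than IgG RIP (median -0.92) and 4 lower than input (median -2.04). The shares of all tested genes called lower were 13.6% and 15.5%. Among those lower than IgG RIP was *Fabp5*, another fatty-acid-binding protein, at 33.7 ± 9.13 CPM in the CELF2-KI RIPs and 80.4 ± 24.2 CPM in the IgG RIPs. This family was already lower in the IgG RIPs than in input, where 3 of the 5 were called, beside 5% of tested genes.

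Sox and Pax genes other than the 3 members had 5 of 16 higher than IgG RIP, 0 lower by edgeR and a median of 0.73. Of all tested genes 13.4% were higher and 13.6% lower. By p before adjustment, under 0.05, 1 of them lay below IgG RIP, and DESeq2 called 1 lower. Against input 6 were higher and 1 lower (median 0.71), beside 14.6% and 15.5% of all tested genes. *Sox21* (log2 fold change 1.80) and *Sox4*, a factor of young neurons (1.47, from 333 ± 8.54 to 927 ± 281 CPM), had the largest rises among the called genes. Among 8 Hes and Hey repressors other than the members, 1 was higher than IgG RIP, a share near the 13.4% of all tested genes. It was *Hey1*, a Notch target (1.26), and the list's median was 0.22. Against input 0 were higher and 1 lower by edgeR, with a median of 0.34. At a p under 0.05 before adjustment in edgeR 4 were higher and 2 lower, and DESeq2 called 1 and 2.

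Of 24 tested cell division genes, 4 were higher and 3 lower than IgG RIP, shares near the 13.4% and 13.6% of all tested genes, with a median of -0.32. The D-type cyclins *Ccnd2* (1.90, from 359 ± 61.9 to 1340 ± 422 CPM) and *Ccnd1* (1.87) rose, and *Mki67*, a marker of dividing cells (-1.75, from 53.6 ± 12.1 to 15.9 ± 0.447 CPM), and *Ccnb2* (-1.35) fell.

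**Figure D5:**
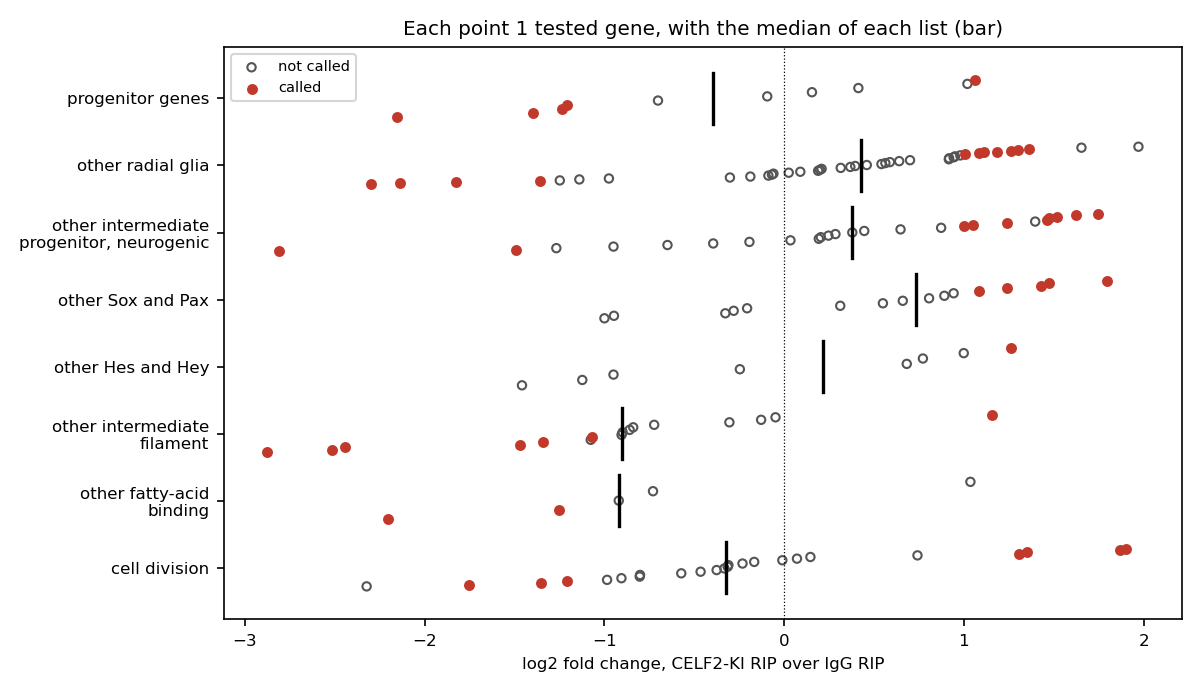
Log2 fold change between CELF2-KI RIP and IgG RIP, positive where CELF2-KI RIP was higher (horizontal axis), for each tested gene of the progenitor genes, the related gene lists and the cell division genes, with 1 row per list, each point 1 gene and the bar the list's median. The medians run from -0.92 for the other fatty-acid-binding genes to 0.73 for the other Sox and Pax genes, with the 10 progenitor genes at -0.40.

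Markers of other cell types moved with the conditions as well. Against IgG RIP, 4 of 8 markers of excitatory neurons, 4 of 6 of young neurons and 2 of 7 of inhibitory neurons were higher in the CELF2-KI RIPs. By edgeR 0 of these 3 lists' markers were called lower, while 1 in each had a p under 0.05 before adjustment and DESeq2 called 1, of excitatory neurons. Against input, 3 markers of excitatory, 1 of young and 1 of inhibitory neurons were higher, with 1, 0 and 1 lower by edgeR (2, 1 and 2 at a p under 0.05 before adjustment, and 1, 1 and 2 by DESeq2). The median of the young neuron markers was 1.09 over IgG RIP, 0.26 over input, and -0.79 for IgG RIP over input. For all tested genes it was -0.06, 0.19 and -0.00. The markers of excitatory neurons summed to 1681 to 2290 CPM in the CELF2-KI RIPs, 913 to 1062 CPM in the IgG RIPs and 994 to 1165 CPM in input. *Slc17a7*, a vesicular glutamate transporter, had a log2 fold change of 2.21 and *Dcx*, a microtubule protein of migrating neurons, 1.65. The 10 progenitor genes summed to 273 to 331 CPM in the CELF2-KI RIPs, 499.6 to 555 CPM in the IgG RIPs and 638 to 692 CPM in input. The sums of the other progenitor lists did not share this fall, but a sum is weighted toward abundant genes. By gene, 9 of 40 other radial glia genes were lower than input and 4 higher. Their median was -0.14, beside 0.19 for all tested genes. The other radial glia genes summed to 6749 to 7893, 5502 to 6298 and 6541 to 7141 CPM in the 3 conditions in that order. Those of intermediate progenitors and neurogenesis summed to 4221 to 6189, 2315 to 2562 and 2524 to 2650 CPM.

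Astrocytes share several of the 10 genes, and of their 7 markers 1 was higher (*Aqp4*, 1.69) and 2 lower (*Gjb6*, -1.59, and *Aldoc*, -1.39) than IgG RIP. Their sum was 463 to 507 CPM in the CELF2-KI RIPs, 323 to 371 CPM in the IgG RIPs and 525 to 554 CPM in input. Oligodendrocyte precursor markers had 0 of 6 called by edgeR (2 above and 3 below at a p under 0.05 before adjustment, and 1 lower by DESeq2), with sums of 589 to 719, 571 to 597 and 523 to 603 CPM. Endothelial markers, from cells that also make vimentin, had 1 of 6 lower (*Cdh5*, -1.10) and sums of 177 to 257, 162 to 364 and 213 to 336 CPM. Of 6 microglial markers 1 was higher and 2 lower, with sums of 92.0 to 126, 54.0 to 72.2 and 102 to 132 CPM. *P2ry12*, at 0 counts in all 6 RIP libraries and 118, 156 and 0 in input, did not reach 0.5 CPM in 3 libraries and was not tested. Against input, 2 of 7 astrocyte, 2 of 6 oligodendrocyte precursor, 2 of 6 endothelial and 4 of 6 microglial markers were lower by edgeR. Of all tested genes 15.5% were. By edgeR 1 microglial marker was higher than input, and DESeq2 called 0 of them higher.

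Erythroid markers, from blood cells that the labels do not list, had the lowest median of the lists, -2.21: all 5 were lower than IgG RIP, and their sum was 92.7 to 94.96 CPM in the CELF2-KI RIPs, 366 to 584 CPM in the IgG RIPs and 877 to 1135 CPM in input. The order of the conditions was that of *Vim*, *Hes1* and *Fabp7*. Ependymal markers had 1 of 4 lower, with sums of 16.7 to 19.3, 17.9 to 34.2 and 39.2 to 58.1 CPM, and choroid plexus markers had 0 of 4 called by edgeR or DESeq2 (1 above and 1 below at a p under 0.05 before adjustment), with sums of 36.2 to 71.8, 46.4 to 151 and 167 to 462 CPM. Against input 4 of 5 erythroid, 2 of 4 ependymal and 1 of 4 choroid plexus markers were lower by edgeR. The part of these other cell types in the levels of the 10 genes was not tested.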

How the data were processed

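RNA was measured in 9 libraries, 3 of each condition (CELF2-KI RIP, IgG RIP, input), grouped and numbered by the labels. The authors depleted rRNA, made directional libraries, ran FastQC 0.11.9, fastp 0.23.4, Ribodetector 0.3.1 and kallisto 0.51.1 (mm10 in the submitters' processing notes), and deposited estimated counts per transcript, normalized for neither depth nor length. The paper names Ensembl for the transcriptome, whereas rows carry RefSeq accessions, and estimated division of reads between similar transcripts can move counts between genes.

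Here 86722 of 107384 rows (80.8%) were matched to a RefSeq gene table of GRCm38.p6, ignoring versions, and counts were summed per gene and rounded. All 9 columns were used, and 0 columns were not. Protein-coding genes reaching 0.5 CPM in 3 or more libraries were fitted in edgeR 4.0.16 (quasi-likelihood test, TMM, a mean per condition, all 9 libraries) in R 4.3.3, and calls needed a Benjamini-Hochberg FDR under 0.01 and 2-fold. Standard errors and 95% intervals were derived from the F statistic. The common biological coefficient of variation was 0.221, and replicates differed by more than sampling noise. DESeq2 1.42.0, limma 3.58.1, Python 3.11.15, pandas 2.3.3 and matplotlib 3.10.9 were also used. Steps were tested on simulated data. Other scalings, filters, tests, transcript sets, the replicate block and leaving out each library were tried.

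The 10 genes and all lists were chosen with earlier results of these data known. Named were the 10 genes, *Celf2* and, from every other list, up to 2 genes with the largest rise and 2 with the largest fall against IgG RIP among those called. A gene that this rule names is not reported here. *Gfap*, *Bfsp2* and *P2ry12* were named after their values were seen. Same-numbered libraries were checked for pairing by the correlation, across genes, of deviations from condition means: 0.142, 0.133 and 0.182 for the CELF2-KI RIPs with their inputs, -0.094, 0.060 and -0.010 for the CELF2-KI RIPs with the IgG RIPs, and 0.075, 0.104 and 0.056 for the IgG RIPs with the inputs. The values were highest for CELF2-KI RIP with input but were low in every case, and libraries of different numbers were not compared. Whether equal numbers mark paired libraries was therefore not settled, and the labels do not give a pairing.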

Additional observations from a re-analysis of the deposited data

How the results depend on the processing

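Of the log2 fold changes of single genes under the alternatives, 611 kept their direction and their side of the threshold, 21 changed sign, 20 lost a call and 5 gained one. *Pax6*, near 0 and never called, turned sign most. Against input it was -0.12 with DESeq2 size factors and in DESeq2's Wald test, -0.22 with upper-quartile scaling, -0.44 with total counts, -0.36 with TMM over coding and noncoding genes, -0.10 without a filter, -0.21 with the replicate block in the 2 conditions compared, -0.20 in the 6 libraries of the 2 conditions, -0.0073 with curated transcripts and -0.051 with transcripts of matching version. Leaving out 1 library gave -0.14 to 0.078, with -0.08 without CELF2-KI RIP replicate 1 and -0.14 without input replicate 2. Against IgG RIP *Pax6* was -0.11 with upper-quartile scaling, -0.21 with total counts, -0.043 with TMM over coding and noncoding genes, -9e-04 with curated transcripts and -0.10 without IgG RIP replicate 3 (up to 0.50 when 1 library was left out), and IgG RIP over input was 0.12 without that replicate (down to -0.48). *Hes5* against IgG RIP was 0.07 without CELF2-KI RIP replicate 2 and 0.10 without replicate 3 (down to -0.53), and *Eomes* against input was 0.015 without CELF2-KI RIP replicate 2 (down to -0.45). The causes were not tested.

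The 1 member called higher than IgG RIP, *Sox9*, became 0 with DESeq2 size factors, upper-quartile scaling, total counts, TMM over coding and noncoding genes, no filter, DESeq2, glmTreat, curated transcripts, transcripts of matching version and the replicate block in the 2 conditions compared, and 0 to 1 when 1 library was left out. The 4 lower than IgG RIP became 1 with glmTreat. The 3 lower than both controls became 5 with total counts and 1 with glmTreat. Over all genes, glmTreat called 545 higher and 622 lower against IgG RIP and 339 and 1117 against input. DESeq2 size factors shifted the split to 1839 higher and 2280 lower against IgG RIP and to 1566 and 2713 against input, upper-quartile scaling to 1212 and 3017 and to 1177 and 2964, and TMM over coding and noncoding genes to 1349 and 2820 and to 707 and 3377. Against input, the 6 libraries of the 2 conditions gave 1438 and 3268, and with the block 1386 and 3293, curated transcripts 1411 and 1980, and matching versions 1247 and 1804 (1315 and 1623 against IgG RIP). For IgG RIP over input, 1037 higher and 764 lower became 912 and 987 with DESeq2 size factors, 783 and 1246 with TMM over coding and noncoding genes, 885 and 1020 with total counts, 100 and 53 with glmTreat, 489 and 402 with curated transcripts, 545 and 434 with matching versions, 556 and 586 with the block in the 2 conditions, and 555 to 1537 and 526 to 1104 with 1 library left out.

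For CELF2-KI RIP against input, the replicate block over all 9 libraries or over the 2 conditions compared changed no call of a member. Against IgG RIP, the block in the 2 conditions compared put *Sox9* at 1.003 (FDR = 0.0144) and *Hes1* at -1.32 (FDR = 0.0467), neither called, and the block over all 9 changed none. Matching versions left out *Neurog2*. Counts were low for *Hes1*, *Neurog2* and the rows of *Pax6*, and edgeR's intervals with 3 libraries a group do not resolve 2-fold differences in *Neurog2*.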
